A study of Mus musculus with 24 samples.

Results

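Circadian clock genes were followed in hippocampal RNA-seq of WT and MSK1 kinase-dead (KD) mice kept in standard housing (SH) or in environmental enrichment (EE). The 10 members were Per1, Per2, Per3, Cry1, Cry2, Arntl, Clock, Dbp, Nr1d1 and Nr1d2, taken by symbol as core clock genes and direct outputs, out of 49568 gene symbols in the count files. Each of the 10 symbols was found once and passed the filter on low counts, and the lowest count of any member in a library was 130. The question was whether the level of the clock genes differed with housing or genotype, and whether members rose and fell together over libraries, which is read here as a possible sign of time of day.

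All groups were whole hippocampus from male mice on a C57-Bl/6J background aged 12 weeks by the labels, with polyA RNA sequenced per library. KD mice were homozygous for D194A in the endogenous MSK1 gene (Rps6ka5), which inactivates the N-terminal kinase domain, and WT mice carried the unmutated gene. EE mice were born and reared in large cages with a running wheel, toys that were moved and replaced, and more cage mates. SH mice were reared in small groups with bedding and a tube. The KD and WT mice were bred as separate lines, and the KD allele was made in C57-Bl/6n and then backcrossed, so a difference between genotypes cannot be told apart from a difference between lines. Each SH group, WT or KD, had 6 libraries and each EE group had 5 in which the members were measured. A further library of each EE group, 33B and 34B, failed the quality control of the study. The sources do not say that each library was a separate animal, so the p-values measure the spread between these libraries. The mice lived under a daily light and dark cycle with lights on in the morning, and the hour of dissection was not given in the sources used here.

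The libraries held between 8911999 and 56752074 counts assigned to genes (median 30265878), and a floor of 3 counts stood for 0.0541 to 0.329 CPM, the counts of a gene as a proportion of all counts, brought to a common library size. The CPM were scaled by TMM, which corrects for differences in library composition. Rps6ka5 itself checks no label here, since a point mutation need not change the RNA, and its level was 24.9 ± 2.25 CPM in WT SH and 25.5 ± 2.14 in KD SH (SD, n = 6 each). Choroid plexus markers varied widely, with a mean log2 CPM over 14 genes of between 0.86 and 6.46. In the labels, 5 of the 22 libraries, all from EE mice, have a code that ends in a letter (31B, 33A and 35A of WT, 32A and 36A of KD), and the other 17 have a number alone. They are called lettered and numbered libraries. What the letter stands for is not given in the sources used here. No SH library was lettered, so a difference between EE and SH is in part a difference between lettered and numbered libraries.

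The clock is a feedback loop of transcription. CLOCK and ARNTL (also called BMAL1) bind E-boxes and switch on the Per and Cry genes, whose proteins then repress CLOCK and ARNTL. In a coupled loop, the receptors encoded by Nr1d1 and Nr1d2 repress Arntl through ROR elements, and DBP, itself an E-box target, activates genes through D-boxes. In rhythmic tissues Dbp, Nr1d1 and Per genes peak in the light phase or around dusk in nocturnal rodents, while Arntl peaks at another phase. Per1 and, less so, Per2 are also induced within minutes to hours by cAMP response element-binding protein (CREB), a target of MSK1, and by glucocorticoid hormones.

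The binding elements named above were searched in the promoter windows of the members, from 250 bases before to 50 bases after each start, as RefSeq gives them on GRCm38.p6. Windows were found for 9 of the 10 members, 13 windows in all, and none for Per2. The 4 stretches below, the 250 bases before the start, are shown because they hold an element of the kind bound by products of other members. Capitals mark the E-box CACGTG, the D-box TTATGTAA or the E-box variant CACGTT, here on the other strand and so read as AACGTG. Both strands were searched for each element.
Per1: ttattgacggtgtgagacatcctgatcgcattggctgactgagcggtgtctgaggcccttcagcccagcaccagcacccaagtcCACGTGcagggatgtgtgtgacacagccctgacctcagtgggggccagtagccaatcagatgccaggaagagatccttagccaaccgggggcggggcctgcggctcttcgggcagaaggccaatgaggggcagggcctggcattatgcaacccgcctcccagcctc
Cry1: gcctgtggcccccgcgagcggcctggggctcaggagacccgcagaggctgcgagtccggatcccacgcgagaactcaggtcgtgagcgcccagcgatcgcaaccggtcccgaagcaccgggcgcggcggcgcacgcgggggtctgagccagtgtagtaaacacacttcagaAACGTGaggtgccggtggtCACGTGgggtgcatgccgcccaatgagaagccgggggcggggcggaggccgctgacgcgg
Nr1d1: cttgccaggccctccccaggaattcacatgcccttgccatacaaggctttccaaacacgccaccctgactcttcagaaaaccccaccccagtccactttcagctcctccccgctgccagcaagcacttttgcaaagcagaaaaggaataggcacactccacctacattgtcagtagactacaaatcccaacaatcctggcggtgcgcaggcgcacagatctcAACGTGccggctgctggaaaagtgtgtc
Per3: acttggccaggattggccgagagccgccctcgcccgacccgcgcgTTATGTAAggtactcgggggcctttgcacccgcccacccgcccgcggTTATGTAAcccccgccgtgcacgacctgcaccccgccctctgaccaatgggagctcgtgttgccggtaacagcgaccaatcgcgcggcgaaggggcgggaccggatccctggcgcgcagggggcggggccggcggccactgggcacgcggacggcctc

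The Per1 stretch is chr11:69098699-69098948 on the plus strand, just before the first exon of an annotated Per1 transcript and inside the longer Per1 gene model. The Cry1 stretch is chr10:85185055-85185304, the Nr1d1 stretch chr11:98775378-98775627 and the Per3 stretch chr4:151044666-151044915, all on the minus strand at the 5′ end of their genes. The Per3 stretch holds a pair of D-boxes, and 0.938% of 32851 mouse promoter windows hold that element. CACGTG was in 7.15% of the windows and CACGTT in 4.68%. In Arntl, a 27-base stretch in the first exon, chr7:113207531-113207557 on the plus strand, holds the core of a ROR element, TAGGTCA, which was in 2.61% of the windows and is the kind of site through which Nr1d1 and Nr1d2 act.
Arntl: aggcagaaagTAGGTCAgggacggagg
The windows of Dbp, Clock and Nr1d2 held none of these letters, and that of Cry2 held CACGTT. The full cAMP response element TGACGTCA was in no window of a member and in 1.79% of all windows, and AGAACA, to which the glucocorticoid receptor can bind, was in none and in 19% of all windows. The short form TGACG, part of the full element and also bound by CREB, was in both Per1 windows, and in those of Cry1 and Cry2, against 20.8% of all windows. Sequence outside the windows was not searched, so an absence here says nothing about elements farther from the start.

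All 10 members were well detected. Per kilobase of exon sequence, Nr1d1, the gene of the repressor REV-ERB alpha, had the highest level at 28.7 ± 3.11 CPM per kb (SD, n = 22), followed by Cry2 at 22.8 ± 1.35. Nr1d2 stood at 16.3 ± 2.03 and Per1 at 15.1 ± 2.78, and these neighbours overlapped, with Nr1d2 above Per1 in 15 of 22 libraries. Dbp followed at 9.43 ± 1.64, Clock at 7.73 ± 0.693, Per2 at 6.62 ± 2.06, Per3 at 5.49 ± 0.804, Arntl at 4.45 ± 0.373 and Cry1 at 4.06 ± 0.402. Nr1d1 was above Cry2, and Per1 above Dbp, in 22 of 22 libraries, and each of the other neighbours changed place in at least 1 library. The counting ignored strand, and 18% of the exon bases of Dbp are shared with Sphk2 on the opposite strand, 8.55% of those of Nr1d1 with Thra and 4.67% of those of Cry2 with D930015M05Rik. By HTSeq's default, which the study used, a fragment that overlaps exons of both genes is assigned to neither. The levels per kilobase of the 3 genes may therefore be too low to that extent. The genes lie on GRCm38 at chr11:69095217-69109960 (Per1, plus strand), chr1:91415982-91459324 (Per2, minus), chr4:151003652-151044665 (Per3, minus), chr10:85131700-85185064 (Cry1, minus) and chr2:92403646-92434043 (Cry2, minus). Arntl is at chr7:113207465-113314126 (plus), Clock at chr5:76209868-76304792 (minus), Dbp at chr7:45705088-45710203 (plus), Nr1d1 at chr11:98767932-98775333 (minus) and Nr1d2 at chr14:18204054-18239127 (minus).

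Members differed in how far libraries of a group spread. The spread within groups was widest for Per2 (SD 0.38 on the log2 scale), and among 9270 genes at or above the level of the lowest member, 99.2% had a smaller SD. The SD was 0.24 for Dbp, 0.23 for Per1 and 0.22 for Per3, wider than in 95.5%, 94.9% and 94.2% of those genes. The spread was 0.16 for Nr1d1 and for Nr1d2, 0.14 for Cry1, 0.13 for Clock and 0.12 for Arntl, against 0.13 for the median gene, and narrowest for Cry2 (0.08, wider than in 11.8%). Nr1d1 and Nr1d2 were wider than 74.2% and 79.4% of the genes, Cry1, Clock and Arntl wider than 61.3%, 58.0% and 46.9%. Much of the spread of Per2 came from 35A and 36A, at 78.8 and 66.8 CPM against 26.3 to 42.8 in the other libraries. Without both, in a calculation added after the data were seen, the SD was 0.21 for Per2, 0.19 for Per1, 0.20 for Per3 and 0.23 for Dbp, wider than in 93.9%, 89.6%, 93.1% and 95.6% of the genes.

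**Figure D1:**
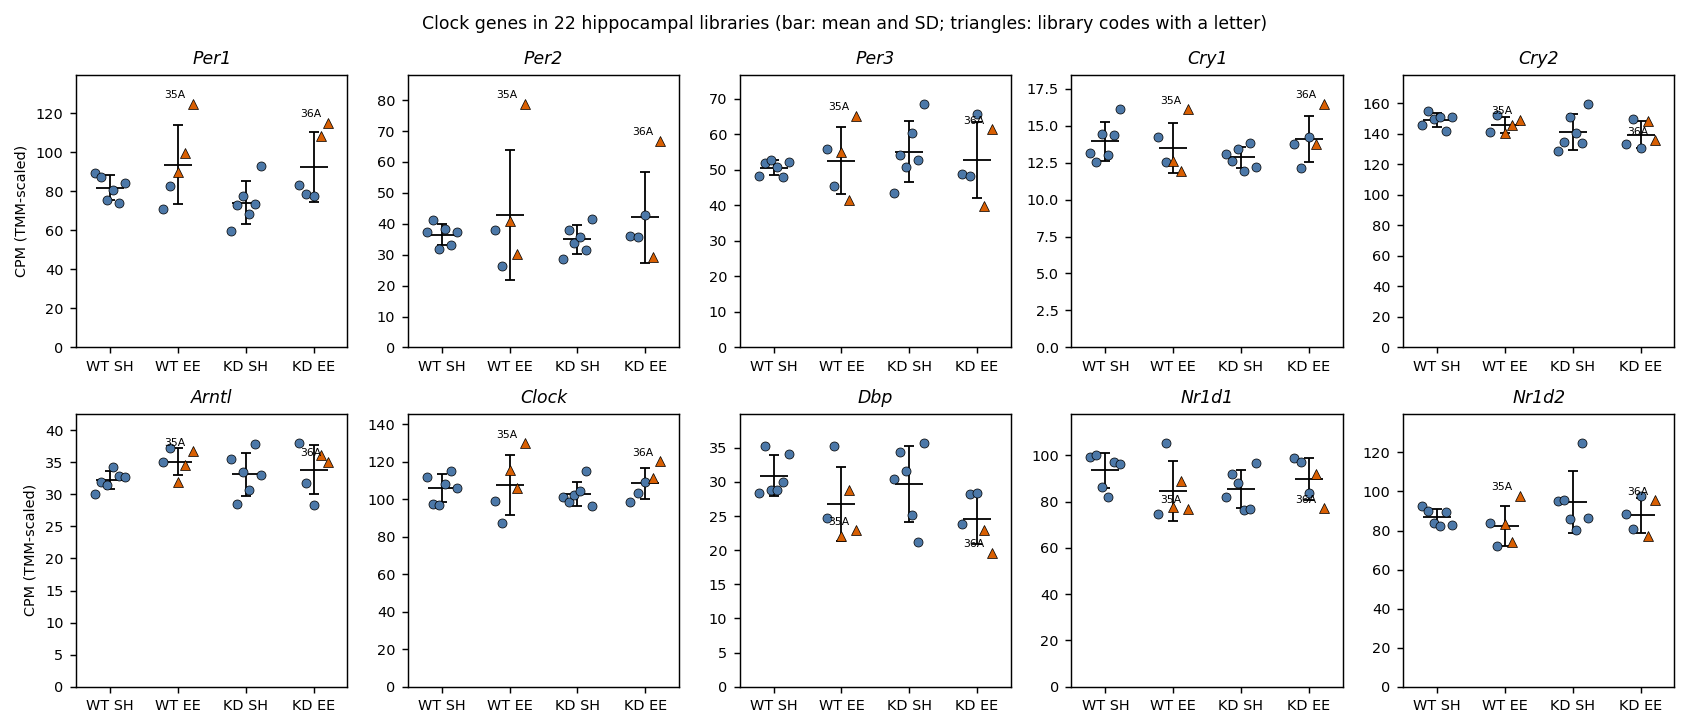
TMM-scaled CPM of the 10 members (vertical axes, starting at 0) in each library of the 4 groups (horizontal axes). Circles are numbered and triangles lettered libraries, and bars give the mean and SD. The 4 groups overlap for every member, and 35A and 36A hold 78.8 and 66.8 CPM of Per2 where the other 20 libraries end at 42.8.

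Enriched housing went with no called change in any clock gene. A gene was called at a Benjamini-Hochberg adjusted p of 0.05 or less in edgeR's quasi-likelihood test with an absolute log2 fold change of at least 0.38. Averaged over genotypes, 0 of the 10 members were called, by edgeR or by DESeq2, where edgeR called 27 of 18482 genes (0.146%) and DESeq2 211. At an unadjusted p under 0.05, there were 2 members, Per1 and Dbp, against 16.1% of all genes tested. The median absolute log2 fold change was 0.07 over the members and 0.08 over all genes. The 95% intervals of the 10 members lay between 0.743-fold and 1.48-fold. Beside this, the 14 choroid plexus markers had a median log2 difference of 2.32 and the 10 glucocorticoid-responsive genes a median of 0.30, with 0 called in either list. Their part in the members' values was not tested.

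Per1, which encodes a repressor that also responds quickly to neuronal activity and hormones, had the lowest adjusted p of the members. It held 74.1 (lowest), 82.6 (median) and 89.5 CPM (highest) in WT SH, and 59.7, 73.2 and 93.3 CPM in KD SH. In WT EE the libraries 16, 17, 31B, 33A and 35A held 71.2, 82.6, 90.2, 99.5 and 125 CPM. In KD EE the libraries 7, 8, 9, 32A and 36A held 83.1, 78.9, 77.4, 108 and 115 CPM. In each genotype the lettered EE libraries lay above every SH library, whereas no numbered EE library did, so the EE and SH groups overlapped. The log2 difference of EE from SH was 0.26 (SE 0.09, edgeR adjusted p = 0.126) over both genotypes, 0.19 (SE 0.12, adjusted p = 0.711) in WT and 0.34 (SE 0.12, adjusted p = 0.467) in KD. Without the lettered libraries it was 0.02 (SE 0.08, adjusted p = 0.95).

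Dbp, a clock output that activates D-box genes, pointed the other way. It held 28.4 (lowest), 29.5 (median) and 35.3 CPM (highest) in WT SH, and 21.2, 31.03 and 35.7 CPM in KD SH. In the WT EE libraries 16, 17, 31B, 33A and 35A the values were 24.8, 35.3, 22.1, 28.8 and 22.9 CPM, and in the KD EE libraries 7, 8, 9, 32A and 36A they were 23.8, 28.3, 28.4, 23.0 and 19.6. Both EE groups lay lower on average and overlapped their SH groups, library 17 being as high as any in WT SH. The log2 difference was -0.24 (SE 0.09, edgeR adjusted p = 0.180) over both genotypes and -0.09 (SE 0.11, adjusted p = 0.765) without the lettered libraries.

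Per2, a partner of Per1 in the repressor complex, had a log2 difference as large as that of Per1 (0.26, SE 0.15, edgeR adjusted p = 0.397), which rested on 2 libraries. It ranged from 31.7 to 41.1 CPM in WT SH (median 37.3) and from 28.6 to 41.6 in KD SH (median 34.8). WT EE held 38.1, 26.3, 41.0, 30.1 and 78.8 CPM in libraries 16, 17, 31B, 33A and 35A, and KD EE held 36.1, 35.6, 42.8, 29.1 and 66.8 in libraries 7, 8, 9, 32A and 36A. 35A and 36A stood far above the SH range, library 9 just above it, and without 35A and 36A the difference was -0.03 (SE 0.09, adjusted p = 0.917), in a fit added after the data were seen.

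The other members moved less. Of the repressor genes, Per3 (log2 difference of EE from SH -0.0002, SE 0.085) ranged from 39.7 to 68.6 CPM over all libraries, Cry1 (0.05, SE 0.06) from 11.9 to 16.5 and Cry2 (-0.02, SE 0.04) from 128 to 159. Of the activators, Arntl differed by 0.08 (SE 0.05) and Clock by 0.06 (SE 0.05). The receptors of the second loop, Nr1d1 and Nr1d2, differed by -0.03 (SE 0.06) and -0.09 (SE 0.07). The adjusted p of these 7 genes was 0.444 or more.

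Clock, the DNA-binding partner of ARNTL, ranged from 97.1 to 115 CPM in WT SH (median 107) and from 96.5 to 115 in KD SH (median 102). It was at 99.3, 87.5, 116, 106 and 130 CPM in the WT EE libraries 16, 17, 31B, 33A and 35A, and at 98.6, 103, 109, 111 and 120 in the KD EE libraries 7, 8, 9, 32A and 36A. In WT EE it thus held both its lowest and its highest value of all 22 libraries. Arntl ranged from 30.1 to 34.3 CPM in WT SH (median 32.3) and from 28.4 to 37.9 in KD SH (median 33.2). In the WT EE libraries, in the same order, Arntl was at 35.1, 37.2, 31.9, 34.5 and 36.8 CPM, and in KD EE at 37.98, 31.7, 28.4, 36.1 and 35.04. Arntl was above the WT SH range in 4 of 5 WT EE libraries, and in KD the EE values covered the whole SH range.

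Nr1d1 ranged from 81.9 to 100.3 CPM in WT SH (median 96.7) and from 76.6 to 96.6 in KD SH (median 85.0). In the same order of libraries it was at 74.5, 105, 77.6, 89.2 and 76.9 CPM in WT EE, and at 99.1, 97.1, 83.8, 92.2 and 77.1 in KD EE. Of the WT EE libraries, 3 lay below the WT SH range and library 17 above it. Nr1d2, its paralog, ranged from 82.4 to 92.5 CPM in WT SH and from 80.1 to 125 in KD SH, and was at 83.7, 72.1, 83.3, 74.0 and 97.8 in WT EE and at 88.4, 80.6, 97.8, 77.2 and 95.5 in KD EE. Library 17, highest in Nr1d1, was lowest in Nr1d2 and in Clock. Per3, a paralog of Per1 and Per2, was at 47.9 to 52.7 CPM in WT SH, 41.4 to 65.3 in WT EE, 43.5 to 68.6 in KD SH and 39.7 to 65.7 in KD EE. The Cry genes encode the partners of the PER proteins, and Cry1 was at 12.5 to 16.1, 11.9 to 16.1, 11.9 to 13.8 and 12.1 to 16.5 CPM in the same groups, and Cry2 at 141 to 155, 140.1 to 152, 128 to 159 and 131 to 149.5. The ranges of the 4 groups overlapped for each of these genes.

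In each genotype alone, 0 of 18482 genes (0%) and 0 of 10 members were called by edgeR in EE against SH, with 1598 genes and 0 members at an unadjusted p under 0.05 in WT, and 1779 genes and 2 members, Per1 and Dbp, in KD. DESeq2 called 20 genes in WT and 3 in KD, none of them a member. No member kept EE and SH libraries apart without overlap in either genotype, where 1.16% of tested genes did so in WT and 0.557% in KD.

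Clock genes did not pass the test between the genotypes either. Averaged over housing, 0 of 18482 genes (0%) and 0 of 10 members were called by edgeR in WT against KD, and 0 by DESeq2, with 1120 genes and 0 members at an unadjusted p under 0.05. The member log2 differences of WT from KD ran from -0.11 (Nr1d2, SE 0.07) to 0.09 (Dbp, SE 0.09), and the 95% intervals from 0.833-fold to 1.27-fold. Under SH alone, edgeR called 0 genes (0%; 1065 at an unadjusted p under 0.05) and DESeq2 2, with 0 members by either tool. Under EE alone, both tools called 0 genes (0%; 482 at an unadjusted p under 0.05 in edgeR). No member was without overlap between genotypes in SH or EE, against 0.276% and 0.346% of tested genes.

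The effect of housing was also compared between genotypes. The interaction, EE against SH in WT minus the same in KD, called 0 genes (0%) and 0 members by edgeR and by DESeq2, with 377 genes and 0 members at an unadjusted p under 0.05. Nr1d1 came nearest, at -0.23 (SE 0.12, unadjusted p = 0.0706), its EE mean being 84.7 ± 12.9 CPM in WT against 93.5 ± 7.58 in WT SH, and 89.8 ± 9.26 in KD EE against 85.3 ± 8.23 in KD SH (SD, n = 5 for EE and 6 for SH). Its interval, 0.716-fold to 1.01-fold, and that of Per2, 0.635-fold to 1.48-fold, give the differences that these libraries leave possible.

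**Figure D2:**
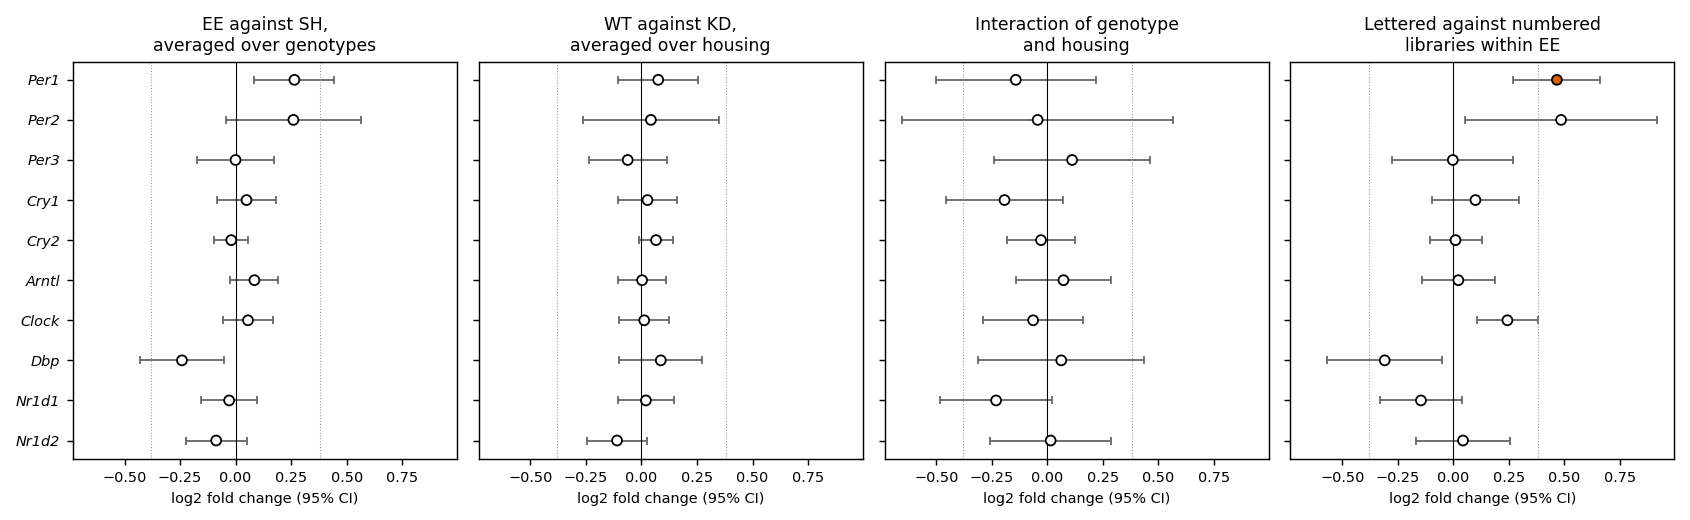
Log2 fold changes of the 10 members (horizontal axes) with 95% intervals from edgeR, for housing, genotype, their interaction, and lettered against numbered libraries within EE. Dotted lines mark 0.38 in either direction, and the filled point is the only called value, Per1 at 0.47.

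The clearest difference in a clock gene lay inside the EE groups, between lettered and numbered libraries. This term was fitted beside the 4 group means, and edgeR called 79 of 18482 genes (0.427%), 62 of them higher in lettered libraries. Of the 10 members, 1 was called, Per1, at a log2 difference of 0.47 (SE 0.09, 95% interval 0.27 to 0.66, adjusted p = 0.0281), which DESeq2 also called. Lettered Per1 values did not overlap numbered ones in either genotype, with 90.2 to 125 CPM against 71.2 to 82.6 in WT EE and 108 to 115 against 77.4 to 83.1 in KD EE. Clock shared that pattern, with 106 to 130 against 87.5 to 99.3 CPM in WT EE and 111 to 120 against 98.6 to 109 in KD EE. These were 2 of 10 members, where 4.58% of tested genes had lettered above numbered libraries in both genotypes, and 0 of 10 had the reverse, where 2.32% did. Clock itself was not called (0.24, SE 0.07, adjusted p = 0.0779), nor were Per2 (0.49, SE 0.21, adjusted p = 0.254) and Dbp (-0.31, SE 0.12, adjusted p = 0.222).

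The call on Per1 depended on few libraries. Per1 stayed higher in lettered libraries whichever of the 22 was left out, with log2 differences between 0.41 and 0.52, but the adjusted p rose to 0.0851 without 16, 0.122 without 17, 0.0505 without 8, 0.0619 without 35A and 0.0826 without 36A. Without both 35A and 36A the difference was 0.36 (SE 0.10, adjusted p = 0.256), and in the 17 libraries that the study kept it was 0.43 (SE 0.11, adjusted p = 0.12). With the choroid plexus score as a covariate it was 0.46 (SE 0.09, adjusted p = 0.017). In the failed library 33B, a lettered WT EE library that was not in the fit, Per1 was at 105 CPM (exact Poisson 95% interval 100.1 to 111, counting error only). The study dropped 33B for ribosomal RNA, and 54.1% of its fragments lay outside single genes, against at most 18.6% in the 22 libraries. Whether 33B and 33A came from the same animal or cage is not given in the sources used here.

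Several genes of neuronal activity and of hormone response were called higher in the same lettered libraries. Of 10 activity genes, 4 were called higher, Egr2 (log2 difference 1.66, SE 0.26), Fosb (0.95, SE 0.17), Junb (0.55, SE 0.11) and Egr1 (0.60, SE 0.14), transcription factors that neurons induce on firing. WT SH library 10 held 68.6 CPM of Junb, above all lettered libraries but 32A (72.3). Its Egr2, at 5.59, was above 31B (4.51), 33A (4.76) and 36A (5.54). Egr1 was at 175 and 170 in 31B and 33A, under the 221 of KD SH library 5. Fosb was above every SH library in all lettered ones, at 16.2 CPM or more against 15.9 or less. The mean log2 CPM of the 10 activity genes was 5.31 in library 10 and 5.07 to 5.49 in lettered libraries. Of 10 glucocorticoid-responsive genes, 3 were called higher, the kinase gene Sgk1 (0.85, SE 0.17), Tsc22d3, which encodes GILZ (0.58, SE 0.14), and Errfi1 (0.50, SE 0.12). All 3 genes were highest in 35A and 36A. In 31B, 32A and 33A, Tsc22d3 was at 49.5, 51.5 and 50.1 CPM, inside the SH range (41.7 to 52.1). Errfi1 was at 36.6, 37.5 and 38.4 CPM there, under the 39.7 of WT SH library 10. Sgk1 was at 55.6, 74.9 and 96.1 CPM, so 31B lay below the numbered WT EE libraries (60.3 and 65.7). Tsc22d3 still did not overlap between lettered and numbered libraries in either EE group. Of 8 temperature-responsive genes, 0 were called, and the cold-inducible Cirbp had a log2 difference of -0.48 (SE 0.12, adjusted p = 0.0526). Median log2 differences were 0.57, 0.54 and 0.08 in these 3 lists, against -0.01 over all genes. The part of these responses in the Per1 difference was not tested.

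Libraries 35A (WT EE) and 36A (KD EE) stood apart from the other 20. The members Per1, Per2 and Clock (3 of 10) were higher in both than in any other library, as were 3.52% of tested genes, and 0 members were lower, as were 2.13%. Since these libraries were singled out by their values, this is a description without a test. Per2 was at 78.8 and 66.8 CPM (26.3 to 42.8 in the others), Per1 at 125 and 115 (59.7 to 108) and Clock at 130 and 120 (87.5 to 116). Bhlhe40, an E-box repressor and clock target, was at 135 and 128 (78.1 to 107). Arntl, at 36.8 and 35.04, lay inside the range of the others (28.4 to 37.98), as did Nr1d1, and Dbp was low (22.9 and 19.6 against 21.2 to 35.7).

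The same libraries held the highest Sgk1 (127 and 147 CPM against 43.3 to 96.1) and Tsc22d3 (84.5 and 94.3 against 40.1 to 52.1). They also held the lowest Cirbp, at 35.7 and 32.7 CPM against 46.4 to 77.4, and the highest Hspa1b, a heat shock gene, at 26.5 and 30.1 against 8.66 to 21.8. The score of the glucocorticoid-responsive list, its mean log2 CPM, was 4.86 and 5.16 against 3.91 to 4.34. Choroid plexus markers were low in 35A (score 1.10) and high in 36A (6.44). The neuron score, over 5 markers, was 9.14 and 9.04 against 9.11 to 9.33, and no marker of any cell type list was at 0 counts in any library. The part of these differences in the Per2 level was not tested. In whole tissue, fewer cells of a type and less RNA per cell cannot be told apart. Library 35A also had the most counts on genes (56752074) and the largest share of fragments outside single genes, 18.6% against at most 16.1% in the other 21, and 36A had 30079793 counts and a share of 15.1%. The part of depth and of this share in the values was not tested. The study left 35A out for poor correlation within its group and kept 36A.

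**Figure D3:**
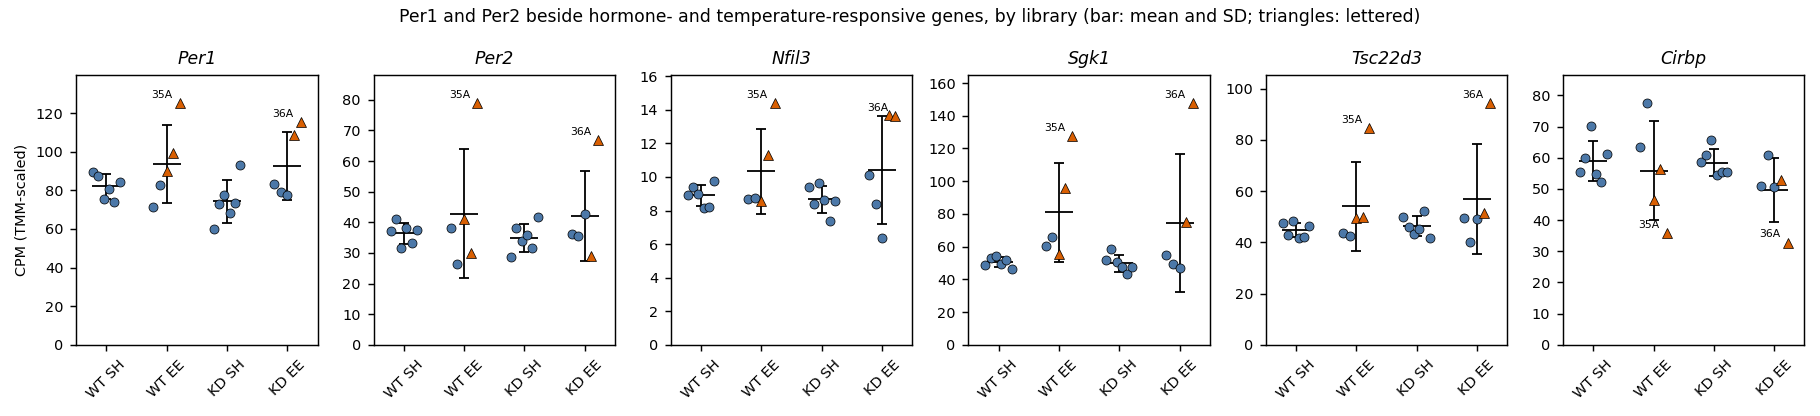
TMM-scaled CPM (vertical axes, starting at 0) of Per1, Per2 and the D-box repressor gene Nfil3 beside the glucocorticoid-responsive Sgk1 and Tsc22d3 and the cold-inducible Cirbp, by group, with circles for numbered and triangles for lettered libraries and bars for mean and SD. 35A and 36A are highest for Per1, Per2, Sgk1 and Tsc22d3 and lowest for Cirbp.

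The members were then correlated over libraries, since mice taken at different hours would give libraries that differ along the phases of the clock. Log2 CPM (prior count 2) of the 45 pairs were compared over the 22 libraries with two-sided permutation tests of 100000 resamples, and p-values were adjusted over the 45 pairs. After adjustment, 5 pairs passed. The median absolute r of the 45 pairs was 0.35, and 22.2% reached 0.5, where 9.67% of the pairs of a member with another tested gene did. Libraries share depth and tissue makeup, so such pairs are not independent.

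Per2 and Per3 varied together most closely, at r = 0.72 (permutation p = 9e-05, adjusted p = 0.00405) and Spearman's rho = 0.78 (permutation p = 4e-05, adjusted p = 0.0018). It was not carried by 35A and 36A, the libraries farthest from the median of Per2, since without them r was 0.75. The pair stayed at r = 0.79 on deviations from group means (permuted within groups, adjusted p = 0.00675) and at 0.69 in the 17 numbered libraries (adjusted p = 0.0423). It was at 0.70 in the 17 libraries that the study kept (adjusted p = 0.0729). The 5 lettered libraries were too few for a correlation of their own to be reported.

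Dbp and Nr1d1, both E-box targets, rose and fell together at r = 0.66 (permutation p = 0.00096, adjusted p = 0.0144), with rho = 0.57 (permutation p = 0.0061, adjusted p = 0.0915). Without 5 and 36A, the farthest for Dbp, r was 0.58, on deviations from group means 0.76 (adjusted p = 0.00675) and in numbered libraries 0.61 (adjusted p = 0.0922). Clock and Dbp were opposed at r = -0.67 (permutation p = 0.00061, adjusted p = 0.0137), with rho = -0.70 (permutation p = 0.00043, adjusted p = 0.00967). Without 17 and 35A, the farthest for Clock, r was -0.62, on deviations from group means -0.71 (adjusted p = 0.0078) and in numbered libraries -0.47 (adjusted p = 0.277). Without 35A and 36A the 2 pairs were at r = 0.59 and -0.58 (permutation test, adjusted p = 0.083 each). In the 17 libraries that the study kept they were at 0.63 and -0.61 (adjusted p = 0.0999 each), so neither pair passed in these 2 sets. Both pairs kept their direction in each of these.

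The other 2 pairs rested on 35A and 36A. Per2 with Clock was at r = 0.61 (permutation p = 0.00313, adjusted p = 0.0352), with rho = 0.25 (permutation p = 0.267, adjusted p = 0.501), and Per1 with Per2 at r = 0.60 (permutation p = 0.00406, adjusted p = 0.0365), with rho = 0.35 (permutation p = 0.106, adjusted p = 0.329). Without 35A and 36A, the farthest for Per1 and for Per2, r fell to 0.17 and 0.07, so neither relation held. In numbered libraries they were at 0.23 and 0.45, with adjusted p of 0.77 and 0.289. Per2 with Arntl was at r = -0.59 without these libraries (permutation p = 0.00639, adjusted p = 0.083) and at -0.05 over all 22 (permutation p = 0.826), past the threshold in neither. Over all 22 libraries, no Per gene passed with Dbp or Nr1d1. With Dbp, Per1, Per2 and Per3 were at r = -0.34, -0.38 and -0.12 (permutation test, adjusted p = 0.219, 0.199 and 0.729). With Nr1d1 they were at 0.03, -0.39 and -0.41 (adjusted p = 0.975, 0.199 and 0.185). Nr1d1 with its paralog Nr1d2 was at -0.36 (adjusted p = 0.21).

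Arntl, which peaks at another phase than Dbp and Nr1d1 in rhythmic tissues, passed with no member. Dbp with Arntl was at r = -0.38 (permutation p = 0.0847, adjusted p = 0.199), with rho = -0.29 (permutation p = 0.194, adjusted p = 0.426), and r was -0.33 without 2 and 9, the farthest for Arntl. Arntl with Nr1d1, whose product represses it, was at -0.11 (permutation p = 0.636, adjusted p = 0.753), with rho = -0.12 (permutation p = 0.585, adjusted p = 0.732), and at -0.14 without the same 2 libraries. Within groups that pair was at 0.00013, and Dbp with Arntl at -0.30 (adjusted p = 0.365). The largest absolute r of Arntl with any member was that with Dbp. In numbered libraries alone, Per1 went with Cry2 (r = 0.68, permutation p = 0.00203, adjusted p = 0.0423) and with Nr1d1 (0.67, permutation p = 0.0024, adjusted p = 0.0423), which over all 22 were at 0.37 and 0.03. These are values from alternatives and the difference between the sets of libraries was not tested.

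**Figure D4:**
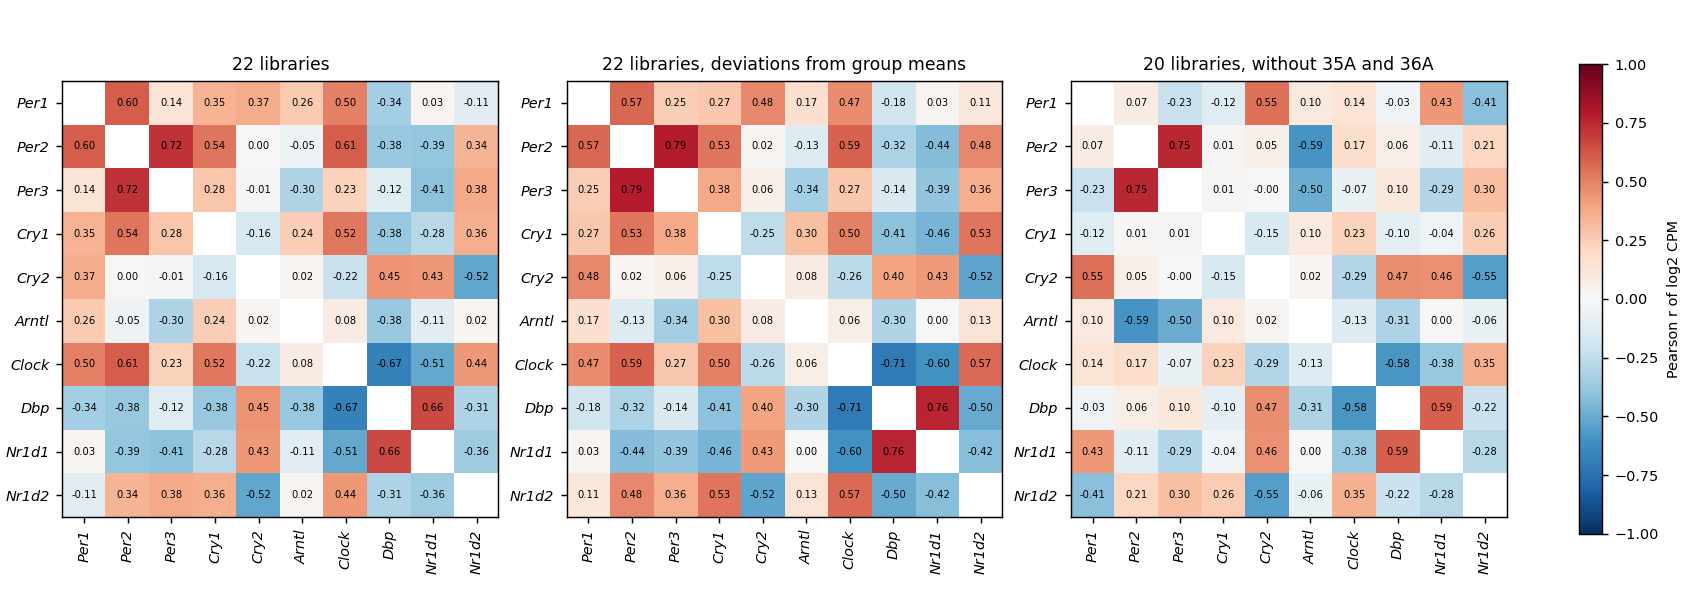
Pearson r of log2 CPM for each pair of members, over 22 libraries, over the same libraries as deviations from group means, and over 20 libraries without 35A and 36A. Red is positive and blue negative. Per2 with Per3 (0.72, 0.79 and 0.75) and Dbp with Nr1d1 (0.66, 0.76 and 0.59) remain positive in the 3 panels, while Per1 with Per2 goes from 0.60 to 0.07 in the last.

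Genes whose pattern over the 22 libraries was most like that of Dbp were Bex3 (r = 0.83), Mrps26 (0.81), Mdh2 (0.79), Acbd6 (0.79) and Gnai2 (0.78), and those most opposed were Pikfyve (-0.84), Adal (-0.83), Cr1l (-0.82), Rpgrip1l (-0.81) and Hspa4l (-0.80). For Arntl they were Gm13589 (0.74), Plpp6 (0.72), Gm45309 (0.69), Hsd17b7 (0.69) and 2810021J22Rik (0.68), against Efl1 (-0.73), Gm15422 (-0.69), Ldlrad3 (-0.68), Rab38 (-0.68) and Il27ra (-0.67). None of these is a gene of the clock lists. These are the extremes of 18481 genes, given as a description. Among those genes, Clock was 174th by absolute r with Dbp, and Dbp 2038th with Arntl. Nr1d1 had Dbp at place 29 and Clock had Dbp at place 962, and the pair of Per2 and Per3 was at place 27 among the genes ranked for Per3 and at place 270 among those ranked for Per2.

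Of a wider list of 21 other clock genes, few came near a call. In EE against SH averaged over genotypes, 0 of 21 were called by edgeR, against 0.146% of all genes tested. At an unadjusted p under 0.05 there were 4 of 21, against 16.1% of all genes tested. The lowest adjusted p was that of Ciart (CHRONO, a repressor of CLOCK and ARNTL), at a log2 difference of -0.30 (SE 0.09, edgeR adjusted p = 0.0971). Ciart was at -0.18 (SE 0.10, adjusted p = 0.450) without the lettered libraries and at -0.33 (SE 0.09, adjusted p = 0.0226) in the 17 libraries of the study, and DESeq2 gave -0.30 (adjusted p = 0.0368), the size staying under 0.38 in each. Between the genotypes and for the interaction, 0 of 21 were called. Between lettered and numbered EE libraries, 1 of 21 was called by edgeR, against 0.427% of all genes tested. It was Nfil3, a repressor at D-boxes, at 0.55 (SE 0.12, edgeR adjusted p = 0.0395). Nfil3 was at 8.59 to 14.4 CPM in lettered and 8.71 to 8.72 in numbered WT EE libraries, which overlap, and at 13.6 to 13.7 against 6.35 to 10.1 in KD EE, which do not. Its adjusted p rose to between 0.0508 and 0.141 without any 1 of 8, 9, 32A or 36A of KD EE, 16, 17 or 35A of WT EE, 2 or 4 of KD SH, or 10, 11, 13 or 15 of WT SH, and to 0.302 without 35A and 36A together. Bhlhe40 (0.31, SE 0.09, adjusted p = 0.104) and Npas2, a paralog of Clock (0.23, SE 0.09, adjusted p = 0.219), did not pass. Rora, a ROR receptor gene, reached 103 CPM in library 12 of WT SH against 36.9 to 65.2 in the other libraries, and that library also had the highest thalamus score (5.92 against at most 4.16), a list that holds Rora itself. Its part in that value was not tested.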

How the data were processed

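Hippocampal polyA RNA was sequenced as paired reads from 24 libraries. Per the study's methods, the authors removed adapters (Skewer), mapped the reads to GRCm38 (STAR 2.5) and assigned uniquely mapped fragments to genes in HTSeq's unstranded mode. The deposited values used here are those raw counts of reads per gene. A table of DESeq-normalised values of the series was not used. Libraries 33B and 34B, which failed quality control, were left out. The 22 others carried 8911999 to 56752074 counts on genes, and of 276 pairs among the 24 files 0 were identical. HTSeq's summary lines (14.0% to 18.6% of all counted fragments in the 22 libraries) name no gene and were left out.

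Counts were filtered (filterByExpr), scaled by TMM and fitted with edgeR 4.0.16 in R 4.3.3 over the 4 group means. The quasi-likelihood test was run on 18482 genes, with Benjamini-Hochberg adjustment over all of them and calls at an adjusted p of at most 0.05 with an absolute log2 fold change of at least 0.38. A further fit added a term for lettered libraries. Correlations used log2 CPM with a prior count of 2. DESeq2 1.42.0, other scalings and filters, the 17 libraries that the study kept after removing those with poor correlation within their group, and fits leaving out libraries were run as alternatives. Fits were tested on simulated counts with the same spread for every gene and no differences shared between libraries. These data differ from that, so the simulation checks the code and not the calls made here. Exon lengths, positions and overlaps came from GENCODE M21, promoter sequences from RefSeq (GRCm38.p6). The named genes were the 10 members, any of 21 other clock genes, genes of the marker and response lists whose values stand beside a result, and the 5 genes with the highest and the 5 with the lowest r to Dbp and to Arntl. Members and lists were chosen with earlier results of these data known. Poisson intervals and floors of 3 counts cover counting error only, as PCR reads without molecular identifiers are not independent molecules, whereas the edgeR intervals of fold changes include the spread between libraries.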

Additional observations from a re-analysis of the deposited data

Results flagged for a closer look

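Per2 in library 35A of WT EE was at 78.8 CPM, and the nearest of the other 4 libraries of its group was at 41.0. The gap was 0.72 of the whole range of the group, where Dixon's 95% critical value for 5 samples is 0.71. Nr1d2 in library 5 of KD SH was at 125 CPM with the nearest of the other 5 at 95.4, a gap of 0.657 of the range against a critical value of 0.625 for 6 samples. Of 40 combinations of a member and a group, 2 passed this limit, and chance passes about 1 in 20. Library 5 also had the lowest dentate gyrus score (mean log2 CPM 4.77 against at least 5.20 in the others). Its score for CA1 and CA3 pyramidal cells was lowest too (5.99 against at least 6.20). Per1 in the failed library 33B, a lettered WT EE library used in no comparison, was at 105 CPM (exact Poisson 95% interval 100.1 to 111), above the highest SH library at 93.2 CPM in the scaling of all 24 libraries. In 33B, 54.1% of the fragments lay outside single genes, and its relation to 33A is not known. The causes were not tested.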

How the results depend on the processing

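No paired analysis was possible because the groups share no replicate number. In the 7 comparisons of groups, 0 members were called under any of 235 alternative counts. Between lettered and numbered libraries, the 1 member called became 0 in the 17 libraries of the study and without 35A and 36A, and 0 to 1 with a single library left out. The fits without 35A and 36A, and every alternative to the comparison of lettered with numbered libraries, were chosen after seeing the data. Counts of all genes called moved more. In WT EE against SH (0), they were 664 in the 17 libraries, 1 in all 24, 20 with DESeq2, 7 without a filter, 314 without lettered libraries and 2 with a lettered term. In KD EE against SH (0) they were 325 in the 17 libraries, 3 with DESeq2 and 0 to 1 with a single library left out. WT against KD (0) gave 2 with DESeq2 in SH, and in EE 1 in the 17 libraries and 0 to 1 with a library left out. EE against SH averaged (27) gave 720 in the 17 libraries, 90 in all 24, 211 with DESeq2, 44 with its size factors, 209 without a filter, 45 at 10 or more counts, 80 without lettered libraries, 1 with a lettered term, 8 with the choroid plexus covariate, 3 without 35A and 36A, 49 on the adjusted p alone, and 2 to 287 with a library left out. Lettered against numbered (79) gave 8 in the 17 libraries, 215 with DESeq2, 164 without a filter, 3 without 35A and 36A, 34 in the enriched groups alone, 151 on the adjusted p alone, and 0 to 123 with a library left out (0 without 17).

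A change of sign was counted where the estimate on either side exceeded its SE, and 125 log2 fold changes and 54 correlations changed sign within 1 SE of 0. In the 17 libraries, log2 fold changes turned for Per2 (-0.25) and Clock (-0.14) in WT EE against SH, Per1 (-0.20) and Per2 (-0.42) in WT against KD under EE, Clock (-0.036) in EE against SH averaged, and Per2 (-0.15) in WT against KD averaged. Without lettered libraries they turned for Per1 (-0.090), Per2 (-0.17) and Clock (-0.18) in WT EE against SH, Per2 (-0.25) in WT against KD under EE, Per2 (-0.018) and Clock (-0.076) in EE against SH averaged, and Clock (-0.056) in WT against KD averaged. With a lettered term they turned for Per1 (-0.10), Per2 (-0.085) and Clock (-0.13) in WT EE against SH, Clock (-0.014) in KD EE against SH, and Per2 (-0.0076) and Clock (-0.073) in EE against SH averaged. Without 35A and 36A they turned for Per2 in WT EE against SH (-0.10) and in EE against SH averaged (-0.030), and for Per2 (-0.083) and Cry1 (-0.056) in lettered against numbered. With a single library left out, Per2 ran from -0.11 to 0.37 in WT EE against SH, from -0.33 to 0.26 in WT against KD under EE and from -0.13 to 0.16 in WT against KD averaged, and Per1 from -0.13 to 0.094 in WT against KD under EE, each turning without 35A. Per3 ran from -0.11 to 0.13 in lettered against numbered, turning without 32A.

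Pairs of members past the threshold (5) were 2 by rho, 3 on deviations from group means, 0 in the 17 libraries, 3 in numbered libraries, 1 without 35A and 36A, and 3 to 7 with a single library left out. In numbered libraries r turned for Per1 with Cry1 (-0.033), Arntl (-0.075), Clock (-0.14) and Dbp (0.36), for Per2 with Cry1 (-0.0018) and Dbp (0.070), and for Per3 with Cry1 (-0.058). Without 35A and 36A it turned for Per1 with Per3 (-0.23) and Cry1 (-0.12), Per2 with Dbp (0.063) and Per3 with Clock (-0.067). In the 17 libraries it turned for Per3 with Clock (-0.018) and Cry2 with Arntl (-0.38). Arntl with Nr1d2 ran from -0.30 to 0.14 with a library left out, turning without 5. The cause was not tested. Under the alternatives, 2555 log2 fold changes and 1299 correlations kept their side of the threshold, and those include the changes of sign within 1 SE of 0. Depth limits the lowest members most, with 130 counts of Cry1 in the shallowest library.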

Other observations

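In the failed library 33B, whose counts entered no comparison, the other members were at 32.95 CPM for Per2, 46.5 for Per3, 11.3 for Cry1, 141 for Cry2, 36.1 for Arntl, 103 for Clock, 23.7 for Dbp, 88.0 for Nr1d1 and 69.2 for Nr1d2 in the scaling of all 24 libraries. Library 34B held 16442 counts on genes, and no member had more than 3.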
